A study of Mus musculus with 18 samples.

Results

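The 10 genes whose products hold T cells in a resting state were followed across 6 groups of CD44low CD4+ T cells: Foxo1, Foxp1, Klf2, Klf3, Tob1, Btg1, Btg2, Bach2, Satb1 and Id3. Every array probe whose RefSeq accession belongs to one of these genes was taken, which gave 15 probes for 9 of the 10 genes among 41174 probes in all; no probe was matched to Bach2 by accession, so its RNA was not measured here. All 15 probes were well above background on all 18 arrays, so the filter on dim probes removed none of them, and none of their spots was marked as an outlier or saturated.

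The cells were CD44low CD4+ T cells sorted from the spleens of 18 C57BL/6 mice, 1 mouse per array and 3 mice in each of 6 groups, and total RNA was labelled with Cy3 on 1-colour Agilent arrays. All mice had received tamoxifen, which switches on the ERCre recombinase, for 1 or 4 weeks. LAT KO mice (ERCre+ LAT f/-) carried 1 floxed and 1 null allele of Lat, so that recombination leaves the cell without LAT, the membrane adaptor that couples the T cell receptor to its downstream pathways. Y136F mice (ERCre+ LAT f/m) carried a floxed allele and a mutant allele, so that recombination leaves a LAT protein whose docking tyrosine for phospholipase C gamma is changed to phenylalanine. WT mice were labelled ERCre- LAT f/-, so by their titles they had the same floxed and null alleles as LAT KO mice and tamoxifen but no Cre, whereas the series text calls all mice Cre positive. The promoter that drives ERCre and the age of the mice were not given in the sources used here. The study asked how tonic signalling, the weak receptor signal of unstimulated T cells, sets gene expression.

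Quiescence is an active state. FOXO1 is a forkhead factor that stays in the nucleus while phosphoinositide 3-kinase and AKT are quiet and there drives genes for homing and survival, among them Klf2; FOXP1 is a second forkhead factor needed to keep naive T cells from leaving rest. KLF2 is a Krüppel-like factor that activates the exit receptor S1pr1, and KLF3 is a repressor of the same family. TOB1, BTG1 and BTG2 are antiproliferative proteins that recruit the CCR4-NOT complex, which shortens the poly(A) tails of messenger RNA. BACH2 is a repressor of effector genes, SATB1 is a chromatin organiser of T cells, and ID3 holds E proteins away from DNA.

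RefSeq promoter windows on build GRCm38.p6, each reaching from 250 bases before a gene's start to 50 bases after it, were at hand for all 10 genes (16 windows, since Foxp1 and Satb1 have several starts). The windows of 4 genes are shown because they belong to both genes that changed, Foxo1 and Foxp1 (its most GC-rich start), and to the only windows that held the forkhead or the MEF2 letters, Btg1 and Klf2. Capitals mark the letters of 6 motifs found on either strand: the FOXO motif TGTTTAC, the MEF2 motif (CTA and TAG with 4 bases of any kind between them), the EGR motif GCGTGGG, the KLF motif CCACACCC, the GC box GGGCGG, which SP and KLF factors share, and the ETS motif CCGGAAG. The GC box and the ETS motif were added after the other 4 had been searched.
Foxo1, chr3:52268087-52268386, plus strand: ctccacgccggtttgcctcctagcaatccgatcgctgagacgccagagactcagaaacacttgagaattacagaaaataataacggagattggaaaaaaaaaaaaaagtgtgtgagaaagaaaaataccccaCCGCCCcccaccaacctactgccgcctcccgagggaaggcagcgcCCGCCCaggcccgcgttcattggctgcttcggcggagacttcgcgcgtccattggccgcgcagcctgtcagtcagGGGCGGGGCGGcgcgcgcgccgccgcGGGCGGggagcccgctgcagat
Foxp1, chr6:99028249-99028548, minus strand: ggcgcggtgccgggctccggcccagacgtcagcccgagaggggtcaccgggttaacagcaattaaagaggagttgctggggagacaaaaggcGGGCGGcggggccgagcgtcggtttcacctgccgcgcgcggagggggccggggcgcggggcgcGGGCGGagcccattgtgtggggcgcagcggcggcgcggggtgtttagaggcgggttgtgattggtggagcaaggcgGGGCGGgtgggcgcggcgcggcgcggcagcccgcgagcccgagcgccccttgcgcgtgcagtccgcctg
Btg1, chr10:96616751-96617050, plus strand: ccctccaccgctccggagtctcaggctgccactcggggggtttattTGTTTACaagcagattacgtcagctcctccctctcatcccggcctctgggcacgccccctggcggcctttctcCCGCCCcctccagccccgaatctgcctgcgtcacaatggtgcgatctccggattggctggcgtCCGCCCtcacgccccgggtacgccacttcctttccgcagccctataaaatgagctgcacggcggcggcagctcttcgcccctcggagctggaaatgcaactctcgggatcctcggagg
Klf2, chr8:72318812-72319111, plus strand: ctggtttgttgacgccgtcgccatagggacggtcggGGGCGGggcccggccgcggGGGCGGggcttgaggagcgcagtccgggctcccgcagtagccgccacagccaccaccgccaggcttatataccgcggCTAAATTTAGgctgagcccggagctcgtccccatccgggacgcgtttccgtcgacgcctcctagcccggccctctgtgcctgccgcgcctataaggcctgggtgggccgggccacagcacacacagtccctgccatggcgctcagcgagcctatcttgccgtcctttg
The Foxo1 window held 5 GC boxes and the Foxp1 window 3, and neither held any of the other 5 motifs. The Foxp1 windows not shown held 1 and 0 GC boxes, and that of Klf3, which was not called, held 6. GC content was 61.3% in the Foxo1 and 75.3% in the Foxp1 window shown, against a median of 52.7% over all promoters. The Foxp1 window was chosen by its GC content, and the Foxp1 windows not shown had 60.3% and 48.7%. Windows of measured genes that were not called ran from 49.0% (a start of Satb1) to 76.7% (Klf3). A high GC content was thus not particular to Foxo1 and Foxp1. The Btg1 window was the only one of the 16 with the FOXO letters, 204 bases before the start. The Klf2 window was the only one with the MEF2 letters, 118 bases before it. Among 32851 mouse promoter windows of the same length, 3.65% held the FOXO letters, 3.69% the MEF2 letters, 5.04% the EGR letters, 3.56% the KLF letters, 35.7% a GC box and 8.86% the ETS letters. These matches describe letters and not binding.

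Levels below are log2 of the processed spot intensity after the 75th percentile of the array was subtracted, so that 0 is the brightness of the array's upper quartile; levels of different probes cannot be compared. The arrays lay on 5 slides, and 84.2% to 97.9% of spots were well above background. At 4 weeks the Lat probe differed by -1.37 ± 0.23 between LAT KO and Y136F cells (log2, SE, limma adjusted p = 0.00249). Its difference between LAT KO and WT cells did not pass (-0.88 ± 0.23, adjusted p = 0.203). Where this probe lies relative to the floxed part is not known here. The levels of Lat at 4 weeks were 3.16, 2.62 and 2.34 in LAT KO cells, 4.43, 3.86 and 3.93 in Y136F cells and 3.29, 3.62 and 3.85 in WT cells. At 1 week they were 2.32 and 2.73 in LAT KO cells (replicate 2 was a spot marked as an outlier and was left out), 4.26, 4.17 and 4.32 in Y136F cells and 2.75, 3.47 and 3.37 in WT cells. The sex-linked genes went against the label in 2 libraries. The library labelled LAT KO 1 week replicate 1, a female, had the Y-linked Ddx3y at -0.23 and Xist at -9.30. The library labelled LAT KO 4 weeks replicate 2, a male, had Ddx3y at -8.92 and Xist at 0.21. The summed level of 10 B cell markers was 3.90 in that first library, against 2.39 and 2.09 in the other LAT KO arrays of 1 week, and 2.30 in the second, against 3.57 and 3.45 in the other LAT KO arrays of 4 weeks. A Cd44 probe (A_52_P523459) read 1.13 in the first, against -0.48 and -0.76, and -0.46 in the second, against 0.90 and 0.75; a second of the 3 Cd44 probes ran the same way and the third did not. Whether these libraries were exchanged, which would put an array of 1 week among those of 4 weeks, was not tested, and the forkhead results are given below without them. All Y136F mice were labelled female and all WT and LAT KO mice of 4 weeks male, so that labelled sex and the Y136F genotype cannot be told apart at that time. WT mice of 1 week were of both labelled sexes. The comparison of WT cells over time and the change of the Y136F effect therefore mix time with labelled sex. The CD4 lineage was present throughout, with Cd4 between 2.38 and 3.05. In spite of the CD44low sort, the RNA of memory and effector markers differed between groups. In Y136F against WT cells at 4 weeks, where 3.49% of all probes were called, 8 of 14 memory and effector markers were higher, among them the granzyme gene Gzma (6.64 ± 0.61) and the integrin gene Itgb1 (2.31 ± 0.27), and 1, Ly6c1, was lower.

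Foxo1 and Foxp1 RNA was higher in LAT KO than in Y136F cells after 4 weeks of tamoxifen, and these were the only genes of the set that passed the test in any comparison. All 3 of their probes passed, by 0.93 and 0.64 for Foxo1 (1.90-fold and 1.56-fold) and 0.77 for Foxp1 (1.71-fold). The other 12 probes, for Klf2, Klf3, Tob1, Btg1, Btg2, Satb1 and Id3, did not pass in this comparison. Of 15 member probes 3 were thus called, all higher, where 3.53% of all 39927 probes tested were called (1411). Calls that were higher in LAT KO cells made up 1.15% of all probes tested (459). The median difference of the 15 probes was 0.20, against 0.03 over all probes tested, and 13 of 15 were above 0, against 54.7% of all probes. Besides these 3, the Btg2 probe A_52_P925197 also lay wholly above Y136F (4 of 15 in all, against 13% of all probes). An unadjusted p under 0.05 was reached by the same 3 probes and by 13.2% of all probes. At 1 week the median of the 15 probes in this contrast lay the other way, at -0.13, against 0.04 over all probes tested. Of the 15 probes 1 was then above 0, and 0 were called.

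The brighter Foxo1 probe (A_52_P453884) read 4.15, 4.03 and 3.82 in LAT KO cells at 4 weeks, 3.21, 3.41 and 3.46 in Y136F cells and 3.87, 3.99 and 3.69 in WT cells. Every Y136F array lay below every LAT KO and every WT array, and LAT KO and WT overlapped. Against Y136F cells, LAT KO cells were higher by 0.64 ± 0.14 (SE, limma adjusted p = 0.0143). The second Foxo1 probe (A_51_P138044) read 3.50, 3.86 and 3.42 in LAT KO cells, 2.68, 2.60 and 2.71 in Y136F cells and 3.21, 3.07 and 3.16 in WT cells, so that the 3 genotypes did not overlap and WT lay between. LAT KO cells were higher than Y136F cells here by 0.93 ± 0.17 (adjusted p = 0.00449). Foxp1 (A_52_P276792) read 2.34, 2.71 and 2.65 in LAT KO cells, 1.498, 1.85 and 2.04 in Y136F cells and 2.37, 2.55 and 2.38 in WT cells. All Y136F arrays were again lowest, and LAT KO and WT overlapped; the difference between LAT KO and Y136F cells was 0.77 ± 0.19 (adjusted p = 0.0319).

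Set against WT at 4 weeks, the same probes were lower in Y136F cells without passing the test. The differences were -0.49 ± 0.14 (SE, limma adjusted p = 0.0667) and -0.48 ± 0.17 (adjusted p = 0.166) for Foxo1 and -0.64 ± 0.19 (adjusted p = 0.0869) for Foxp1. LAT KO minus WT was 0.15 ± 0.14 (95% interval -0.15 to 0.44) and 0.45 ± 0.17 (0.08 to 0.81) for Foxo1, and 0.14 ± 0.19 (-0.27 to 0.55) for Foxp1. The comparisons share their control arrays, and the call rests on the direct contrast of the mutants.

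**Figure D1:**
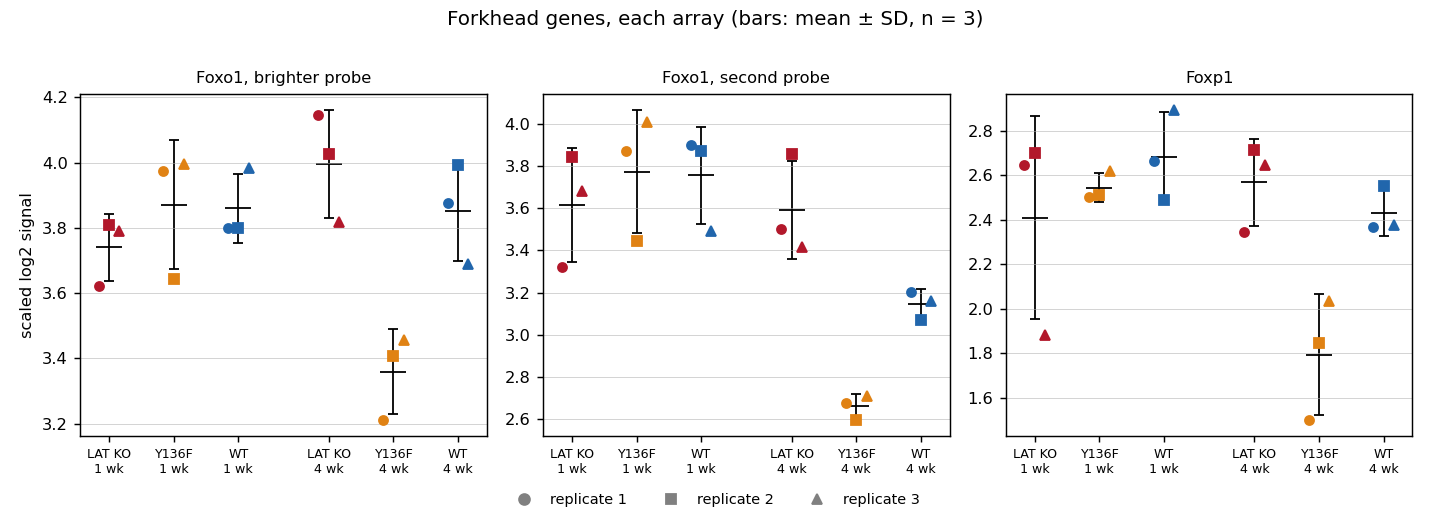
Scaled log2 signal of the 2 Foxo1 probes and the Foxp1 probe on each of the 18 arrays, by group, at 1 week (left) and 4 weeks (right) of tamoxifen; bars are mean ± SD of 3 mice. The 3 Y136F arrays of 4 weeks, from 3.21 to 3.46, 2.60 to 2.71 and 1.498 to 2.04, lie below all LAT KO and WT arrays of that time.

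After 1 week the 3 genotypes overlapped in all 3 forkhead probes. The brighter Foxo1 probe read 3.62, 3.81 and 3.79 in LAT KO cells, 3.97, 3.64 and 4.00 in Y136F cells and 3.80, 3.80 and 3.98 in WT cells. The second probe read 3.32, 3.84 and 3.68 in LAT KO cells, 3.87, 3.44 and 4.01 in Y136F cells and 3.90, 3.87 and 3.49 in WT cells. Foxp1 read 2.65, 2.70 and 1.88 in LAT KO cells, 2.50, 2.51 and 2.62 in Y136F cells and 2.66, 2.49 and 2.90 in WT cells; replicate 3 of LAT KO stood lowest, and it is the array with 7888 spots marked as outliers against 187 to 952 on the others. From 1 to 4 weeks Y136F minus WT shifted downward by about the same amount in the 3 forkhead probes. The changes were -0.50 ± 0.20 for the brighter Foxo1 probe, -0.50 ± 0.25 for the second and -0.50 ± 0.27 for Foxp1 (SE). None of the 3 changes passed (limma adjusted p = 0.38, 0.58 and 0.67). In that test 0 of 15 members and 0.599% of all probes were called, and 2 members and 9.22% of all probes had an unadjusted p under 0.05.

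Other gene groups moved between LAT KO and Y136F cells at 4 weeks together with Foxo1 and Foxp1. Of 24 proliferation genes 19 were lower in LAT KO cells (3.53% of all probes were called in this contrast), with a median difference of -1.46. Their summed level ran from 4.73 to 4.85 in LAT KO, 6.08 to 6.27 in Y136F and 4.81 to 5.20 in WT cells. Of 14 memory and effector markers 6 were lower and 1, Ly6c1, was higher in LAT KO cells. Their summed level ran from 6.68 to 7.29 in LAT KO, 7.76 to 7.93 in Y136F and 6.90 to 7.58 in WT cells. Of 6 CD8 T cell and NK cell markers 2, Eomes and Klrb1c, were lower, with summed levels of 2.91 to 3.58, 4.30 to 4.45 and 3.18 to 3.53. No marker of B cells (0 of 10) or myeloid cells (0 of 9) was called. In such sorted bulk RNA, fewer cells of a type and less RNA per cell cannot be told apart, and the part of these groups in the forkhead differences was not tested.

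Within slides that held both mutants at 4 weeks, each with 1 array per genotype, LAT KO minus Y136F was 0.36 and 0.93 for the brighter Foxo1 probe, 0.70 and 0.82 for the second and 0.61 and 0.85 for Foxp1. Labelled sex varied within a group only among the LAT KO and WT arrays of 1 week, 1 of which has a contradicted label. With labelled sex as a term the differences were 0.51, 1.08 and 1.01 and none passed (limma adjusted p = 0.254, 0.0653 and 0.118; 0.676% of all probes called). With slide as a fixed term the second Foxo1 probe alone passed, where 2.34% of all probes were called. Without the 2 libraries whose sex-linked genes go against their label, both Foxo1 probes passed (0.62, adjusted p = 0.0478, and 0.80, adjusted p = 0.0142) and Foxp1 did not (adjusted p = 0.122). Leaving out single arrays ended the call for the brighter Foxo1 probe without LAT KO replicate 1 (adjusted p = 0.0748), LAT KO replicate 2 (0.0752) or Y136F replicate 1 (0.0898). For Foxp1 the call ended without LAT KO replicate 2 (0.178), LAT KO replicate 3 (0.109), Y136F replicate 1 (0.179) or Y136F replicate 2 (0.0871). The second Foxo1 probe passed without any one of the 6 arrays.

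**Figure D2:**
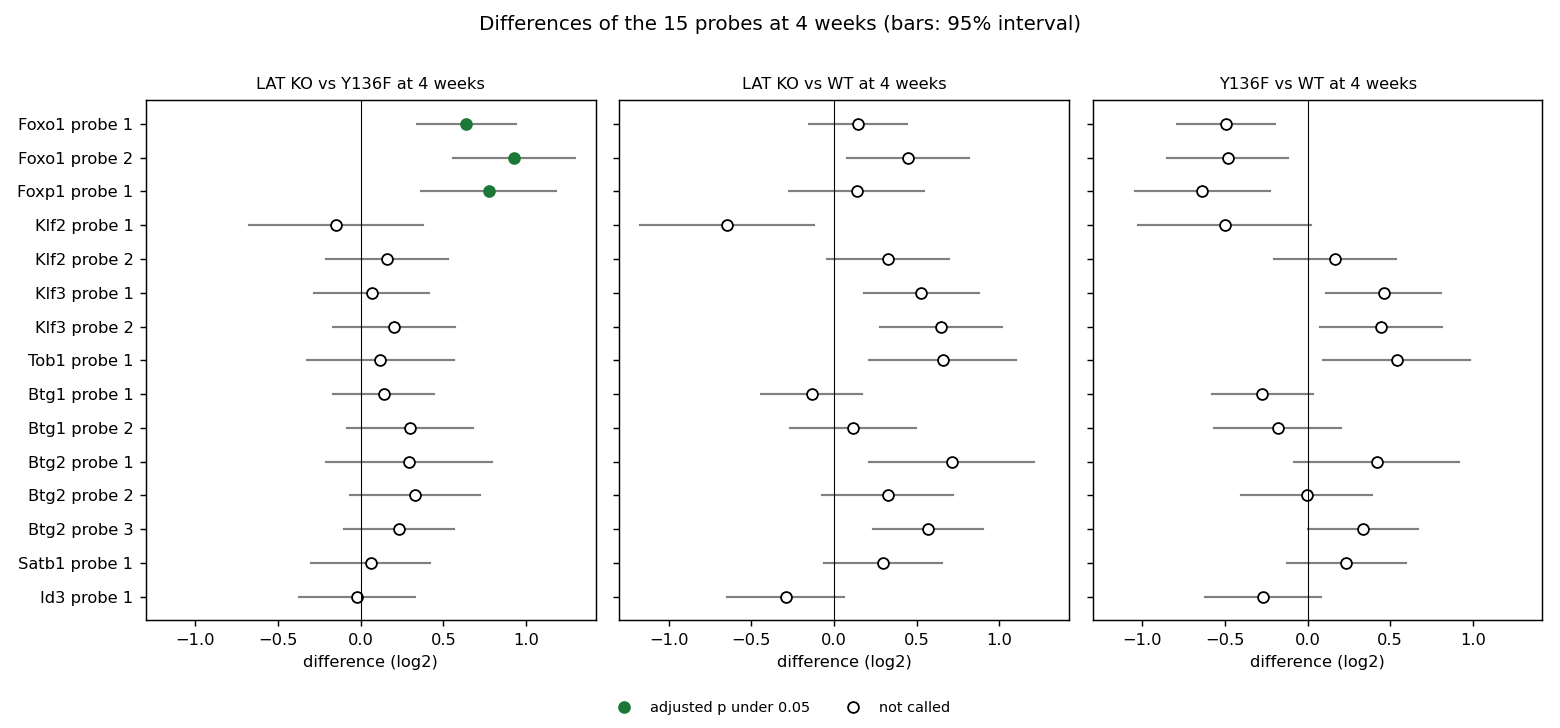
Difference in log2 signal with its 95% interval for each of the 15 probes at 4 weeks, for LAT KO minus Y136F, LAT KO minus WT and Y136F minus WT; filled points have an adjusted p under 0.05. The filled points are both Foxo1 probes (0.64 and 0.93) and Foxp1 (0.77) in LAT KO minus Y136F.

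For LAT KO against WT cells at 4 weeks no member was called (0 of 15, where 39 of 39929 probes, 0.0977%, were called), although the median difference of the members was 0.32 where that of all probes was -0.145. Of the 15, 7 had an unadjusted p under 0.05, against 11.3% of all probes. In all, 8 member probes lay wholly above WT, against 10.2% of all probes, and 2 lay wholly below, against 13.1%. The 8 were the second Foxo1 probe, both Klf3 probes, Tob1, all 3 Btg2 probes and Satb1, and the 2 were the brighter probes of Klf2 and Btg1. With arrays weighted by their quality 8 members were called, where 13.6% of all probes were called: the second Foxo1 probe, both Klf3 probes, Tob1 and all 3 Btg2 probes higher and Id3 lower. Scaling to the 75th percentile leaves the median probe off 0 by more than 0.1 in 4 comparisons: -0.145 here, -0.1645 for Y136F against WT at 4 weeks, -0.1083 for Y136F against WT at 1 week and 0.1725 for WT at 4 weeks against 1 week. For WT at 4 weeks against 1 week the median of the members was -0.25, below that of all probes.

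The Krüppel-like factor Klf3 had the smallest p of the set in this comparison. Its brighter probe (A_52_P462392) read 2.54, 2.42 and 2.65 in LAT KO cells, 2.36, 2.43 and 2.62 in Y136F cells and 2.21, 2.02 and 1.79 in WT cells at 4 weeks. Both mutants lay above all WT arrays and overlapped each other. LAT KO minus WT was 0.53 ± 0.17 (SE, limma adjusted p = 0.284) and Y136F minus WT 0.46 ± 0.17 (adjusted p = 0.162). The second probe (A_51_P492640) read 2.01, 1.91 and 2.16 in LAT KO, 1.79, 1.68 and 2.01 in Y136F and 1.54, 1.33 and 1.26 in WT cells, with differences of 0.65 ± 0.18 (adjusted p = 0.211) and 0.45 ± 0.18 (adjusted p = 0.205). Within the slides with both genotypes, LAT KO minus WT for the 2 probes was 0.85 and 0.90 on the first and 0.33 and 0.47 on the second.

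The 2 probes of Klf2 gave opposite directions. The brighter one (A_52_P442031) read 4.81, 4.09 and 4.84 in LAT KO cells, 4.52, 4.91 and 4.75 in Y136F cells and 4.87, 5.06 and 5.75 in WT cells at 4 weeks. WT was highest. The second one (A_51_P144264) read 2.11, 1.83 and 2.45 in LAT KO cells, 2.05, 1.78 and 2.08 in Y136F cells and 1.70, 1.99 and 1.71 in WT cells, where the groups overlapped. LAT KO minus WT was -0.65 ± 0.25 (SE, limma adjusted p = 0.371) by the first probe and 0.33 ± 0.18 (adjusted p = 0.486) by the second. Y136F minus WT was -0.50 ± 0.25 (adjusted p = 0.321) and 0.16 ± 0.18 (adjusted p = 0.64). The gap between the probes was 2.70, 2.27 and 2.39 in LAT KO cells, 2.48, 3.13 and 2.67 in Y136F cells and 3.17, 3.07 and 4.04 in WT cells, with WT replicate 3 standing apart. No direction is therefore given for Klf2.

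Tob1, the antiproliferative gene with a single probe (A_51_P293339), read -2.86, -2.63 and -2.69 in LAT KO cells at 4 weeks, -3.13, -2.79 and -2.61 in Y136F cells and -3.13, -3.39 and -3.63 in WT cells. LAT KO arrays lay above all WT arrays; the lowest Y136F array was level with the highest WT array to 2 decimals. The differences from WT were 0.66 ± 0.21 for LAT KO (SE, limma adjusted p = 0.297) and 0.54 ± 0.21 for Y136F (adjusted p = 0.206). At 1 week the levels were -2.41, -2.62 and -2.55 in LAT KO cells, -2.66, -2.83 and -2.17 in Y136F cells and -2.11, -2.30 and -2.50 in WT cells, and LAT KO minus WT was -0.23 ± 0.21. The difference between these contrasts, 0.88 ± 0.30, did not pass (adjusted p = 0.818). In that test of a changed effect 0 of 15 members and 0% of 39873 probes were called, and 4 members and 5.28% of all probes had an unadjusted p under 0.05.

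All 3 Btg2 probes stood above WT in every LAT KO array of 4 weeks without passing. The brightest (A_52_P35217) read 2.12, 1.89 and 2.18 in LAT KO cells, 1.67, 1.57 and 2.08 in Y136F cells and 1.69, 1.19 and 1.18 in WT cells, and LAT KO minus WT was 0.71 ± 0.24 (SE, limma adjusted p = 0.317). The other two probes (A_52_P925197 and A_52_P31543) gave 0.32 ± 0.19 (adjusted p = 0.50) and 0.57 ± 0.16 (adjusted p = 0.224). Y136F minus WT was 0.42 ± 0.24, -0.01 ± 0.19 and 0.33 ± 0.16 by the 3 probes, so that they did not share a direction. No difference of Btg1 passed. Its brighter probe (A_51_P288193) averaged 5.03 ± 0.05 in LAT KO, 4.89 ± 0.11 in Y136F and 5.16 ± 0.07 in WT cells (SD, n = 3 each), and its second probe (A_52_P436258) 2.05 ± 0.19, 1.75 ± 0.20 and 1.93 ± 0.30. By the brighter probe both mutants (4.98 to 5.07 in LAT KO and 4.78 to 4.996 in Y136F cells) lay wholly below WT (5.10 to 5.23), with Y136F minus WT at -0.27 ± 0.15 (limma adjusted p = 0.351). The 95% intervals of LAT KO minus WT were -0.44 to 0.17 and -0.26 to 0.50.

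Satb1 (A_51_P324228) averaged 4.58 ± 0.20 in LAT KO, 4.52 ± 0.13 in Y136F and 4.29 ± 0.09 in WT cells at 4 weeks (SD, n = 3 each), with a difference between LAT KO and WT cells of 0.30 ± 0.17 (SE, limma adjusted p = 0.499). Id3 (A_51_P380178) averaged -0.55 ± 0.26 in LAT KO, -0.53 ± 0.02 in Y136F and -0.26 ± 0.21 in WT cells, and LAT KO minus WT was -0.29 ± 0.17 (adjusted p = 0.498). At 1 week Id3 read -0.58, -0.88 and -1.13 in LAT KO cells, -0.77, -0.88 and -0.63 in Y136F cells and -0.45, -0.59 and -0.28 in WT cells. Both mutants were lower in mean at that time (-0.43 ± 0.17 and -0.32 ± 0.17) and neither difference passed (adjusted p = 1.00 and 0.81).

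**Figure D3:**
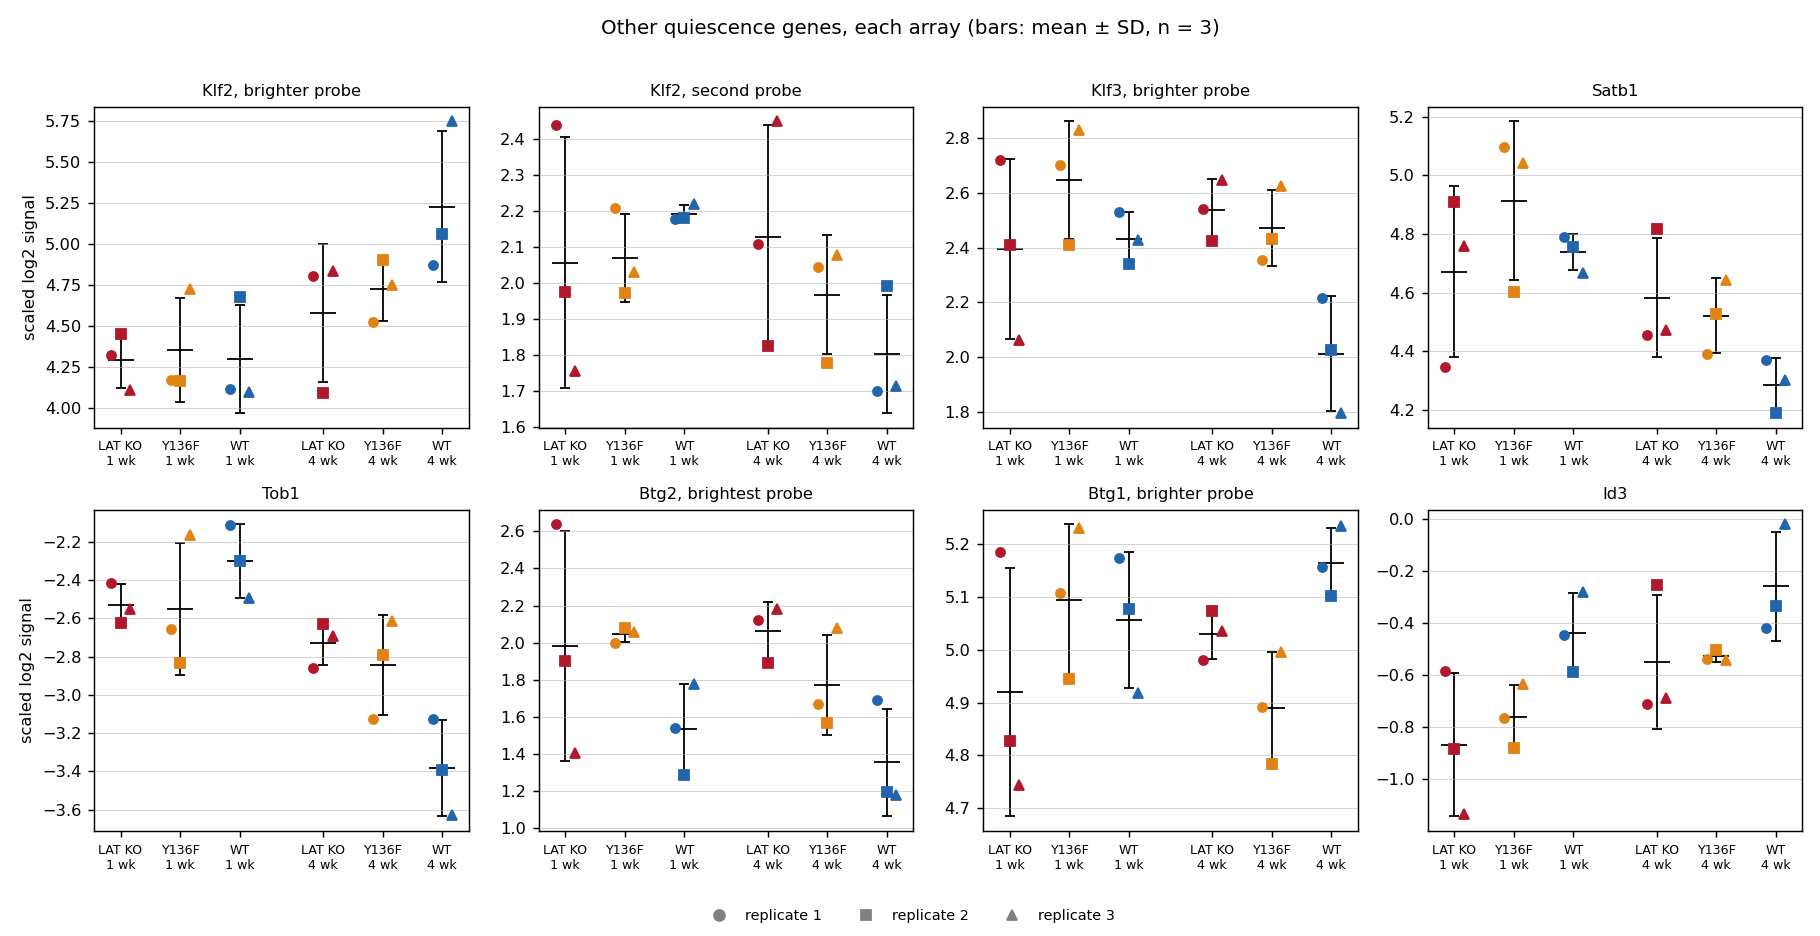
Scaled log2 signal of 8 probes of Klf2, Klf3, Satb1, Tob1, Btg2, Btg1 and Id3 on each of the 18 arrays, by group, with mean ± SD of 3 mice; each panel has its own vertical scale. In WT cells of 4 weeks the brighter Klf2 probe (4.87 to 5.75) is highest of the 6 groups in mean and the Klf3, Satb1, Tob1 and Btg2 probes are lowest, and no difference of these 8 probes passed the test.

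For Y136F against WT cells at 4 weeks 0 of 15 members were called, where 1393 of 39907 probes (3.49%) were called. In this comparison 7 members had an unadjusted p under 0.05, against 16.7% of all probes. Of 7 probes with a difference above 0, 4, of Klf3, Tob1 and Satb1, lay wholly above WT, against 10% of all probes. Wholly below lay 5, of Foxo1, Foxp1, Btg1 and Id3, against 16.3%. The median difference of the members was -0.01, against -0.1645 over all probes. With array weights 7 members were called (16.8% of all probes called): both Foxo1 probes and Foxp1 lower, and both Klf3 probes, Tob1 and the brightest Btg2 probe higher. Quantile normalization called Foxp1 alone (-0.68, 4.12% of all probes called), and slide as a random block the brighter Foxo1 probe alone (-0.49, 4.31%).

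After 1 week of tamoxifen no member was called in any of the 3 comparisons. This was 0 of 15 for LAT KO against Y136F (0% of 39901 probes called; 6.03% with an unadjusted p under 0.05, and 0 members), 0 of 15 for LAT KO against WT (0.015% called, 2.9% unadjusted, and 1 member, Id3) and 0 of 15 for Y136F against WT (0.0125% called, 6.46% unadjusted, and 1 member, the brightest Btg2 probe). That Btg2 probe read 2.64, 1.90 and 1.41 in LAT KO cells, 1.999, 2.08 and 2.06 in Y136F cells and 1.54, 1.29 and 1.78 in WT cells; Y136F lay above all WT arrays by 0.51 ± 0.24 on average, and LAT KO spread across both. Member differences at 1 week ran from -0.43 to 0.51, and their 95% intervals from -0.78 to 1.01.

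**Figure D4:**
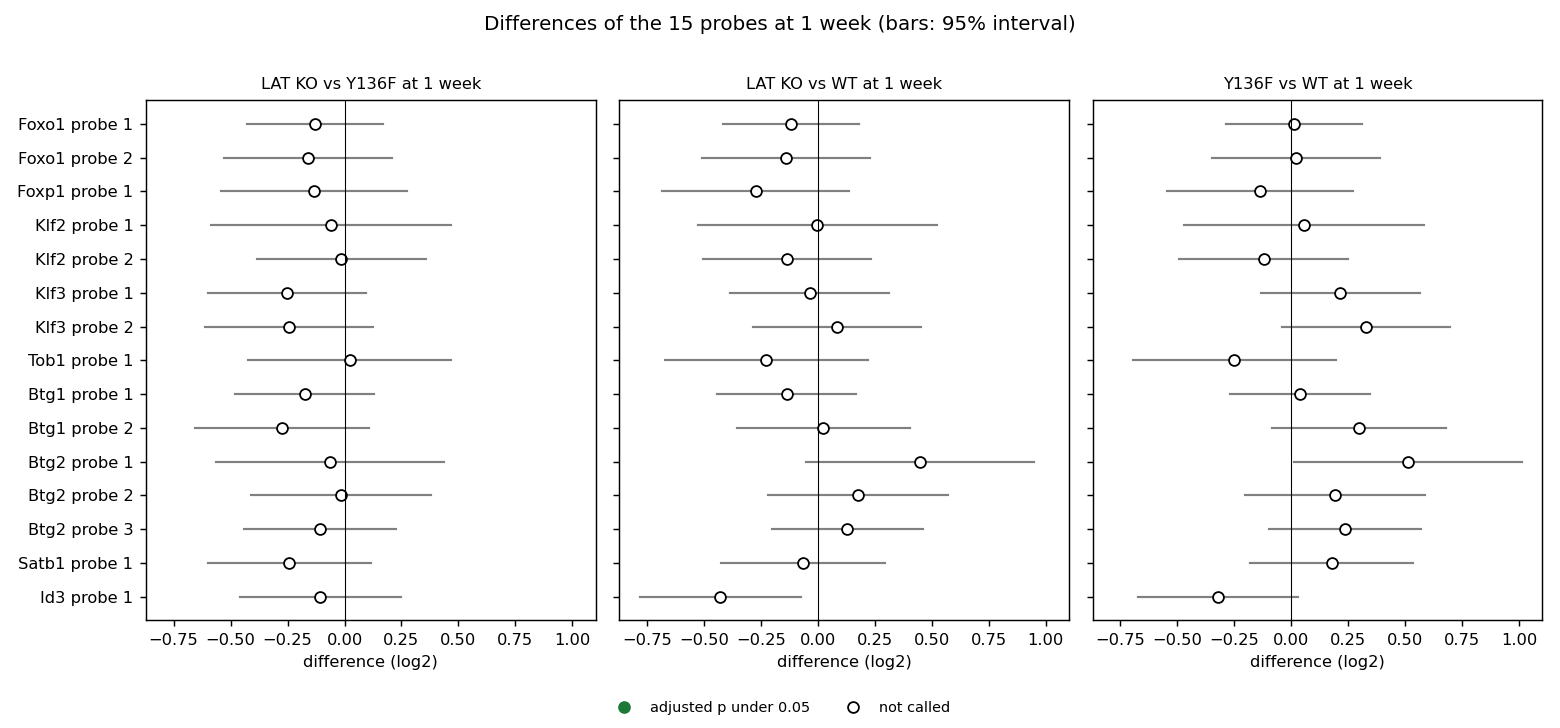
Difference in log2 signal with its 95% interval for each of the 15 probes at 1 week, for LAT KO minus Y136F, LAT KO minus WT and Y136F minus WT. All 45 points are open, and they lie between -0.43 and 0.51.

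Between the times, WT cells themselves differed in several members without a call (0 of 15 members and 0% of 39913 probes called by limma). The median difference of the 15 probes was -0.25, against 0.17 over all probes tested, and 4 of 15 were above 0. In this comparison 7 members had an unadjusted p under 0.05, against 19.1% of all probes; 6 probes lay wholly lower at 4 weeks, against 11.3% of all probes, and 1 wholly higher, against 8.21%. Tob1 was lower at 4 weeks by 1.08 on the log2 scale (-1.08 ± 0.21, SE, adjusted p = 0.0906), the second Foxo1 probe differed by -0.61 ± 0.17 (adjusted p = 0.13) and the brighter one by -0.01 ± 0.14. The brighter Klf2 probe differed by 0.93 ± 0.25 (adjusted p = 0.12) and the second Klf2 probe by -0.39 ± 0.18 (adjusted p = 0.25). The gap between the 2 Foxo1 probes (brighter minus second) was 0.30, -0.03 and 0.11 at 1 week and 0.64, 0.17 and 0.40 at 4 weeks in LAT KO cells. It was 0.10, 0.20 and -0.01 at 1 week and 0.53, 0.81 and 0.74 at 4 weeks in Y136F cells, and -0.10, -0.07 and 0.49 at 1 week and 0.67, 0.92 and 0.53 at 4 weeks in WT cells. The mean gap was larger at 4 weeks in all 3 genotypes, and no test of the gap was run. Slides were spread unevenly over the times, and only 1 slide held WT arrays of both. There Tob1 differed by -1.09, between a male of 4 weeks and a female of 1 week by their labels. WT mice were of both labelled sexes at 1 week and all male at 4 weeks, so time and labelled sex cannot be fully told apart here. With labelled sex as a term the median difference of all probes was 0.0247. Array weights called 4 members in WT over time (5.7% of all probes called), the second Foxo1 probe, the second Klf3 probe and Tob1 lower and the brighter Klf2 probe higher. Tob1 alone was called without both libraries of contradicted sex (0.669% of all probes called).

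Genes listed as activated by FOXO1 or KLF2 in lymphocytes were examined beside the factors, with 11 of 12 listed genes measured. Whether each of them, Bcl6 among them, is activated in CD4 T cells was not tested here. Against WT at 4 weeks 3 of 11 were lower and 1 higher in Y136F cells, against 3.49% of all probes called. The homing receptor Ccr7 (-1.36 ± 0.15, SE, limma adjusted p = 0.000109), the stress-response gene Sesn1 (-1.23 ± 0.20, adjusted p = 0.00195) and the phosphoinositide 3-kinase inhibitor Pik3ip1 (-0.82 ± 0.21, adjusted p = 0.0425) were lower. The repressor Bcl6 was higher (0.94 ± 0.21, adjusted p = 0.0173). In LAT KO against WT cells 0 of 11 were called, which is near the 0.0977% of all probes called there. Ccr7 differed by -0.26 ± 0.15, Sesn1 by 0.15 ± 0.20 and Pik3ip1 by 0.21 ± 0.21. The direct contrast of LAT KO and Y136F cells called Sesn1 (1.38 ± 0.20), Ccr7 (1.11 ± 0.15) and Pik3ip1 (1.03 ± 0.21) higher and Bcl6 (-0.86 ± 0.21) lower in LAT KO cells. Of all probes 3.53% were called in that contrast. The KLF2 target S1pr1, the receptor for exit from lymphoid organs, differed by 0.26 ± 0.15 in that contrast (adjusted p = 0.514), and the survival receptor Il7r by -0.32 ± 0.23 (adjusted p = 0.705). From 1 to 4 weeks Y136F minus WT shifted downward for Ccr7 (-1.43 ± 0.22, limma adjusted p = 0.00503) and Sesn1 (-1.52 ± 0.29, adjusted p = 0.0204). Of all probes 0.599% (239) were called in that test, and 69 probes with labelled sex as a term. WT mice were of both labelled sexes at 1 week and all male at 4 weeks, so this change mixes time with labelled sex.

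Effector genes that BACH2 represses were measured for 8 of 9 listed genes. In Y136F against WT cells at 4 weeks 5 of 8 were higher, against 3.49% of all probes called. They were the cytokine-response regulator Nfil3 (1.99 ± 0.27, SE, limma adjusted p = 0.000378), the nuclear receptor Rora (1.75 ± 0.29, adjusted p = 0.00187), the type 2 helper factor Gata3 (1.59 ± 0.19, adjusted p = 0.000187), the interleukin-12 receptor chain Il12rb1 (1.53 ± 0.27, adjusted p = 0.00347) and the terminal differentiation factor Prdm1 (1.203 ± 0.252, adjusted p = 0.01). Irf4, itself induced by T cell receptor signals, was lower (-1.05 ± 0.23, adjusted p = 0.0145). In LAT KO against WT cells, where 0.0977% of all probes were called, only Irf4 was called of the 8, lower by 2.12 on the log2 scale (-2.12 ± 0.23, adjusted p = 0.000911). LAT KO cells were lower than Y136F cells in 5 of 8, where 3.53% of all probes were called. They were Nfil3 (-2.15 ± 0.27), Maf (-1.65 ± 0.26), Gata3 (-1.18 ± 0.19), Irf4 (-1.07 ± 0.23) and Prdm1 (-1.003 ± 0.252). The list overlaps the memory and effector state whose markers were higher in Y136F cells, and the part of Bach2 could not be read because it had no matched probe.

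**Figure D5:**
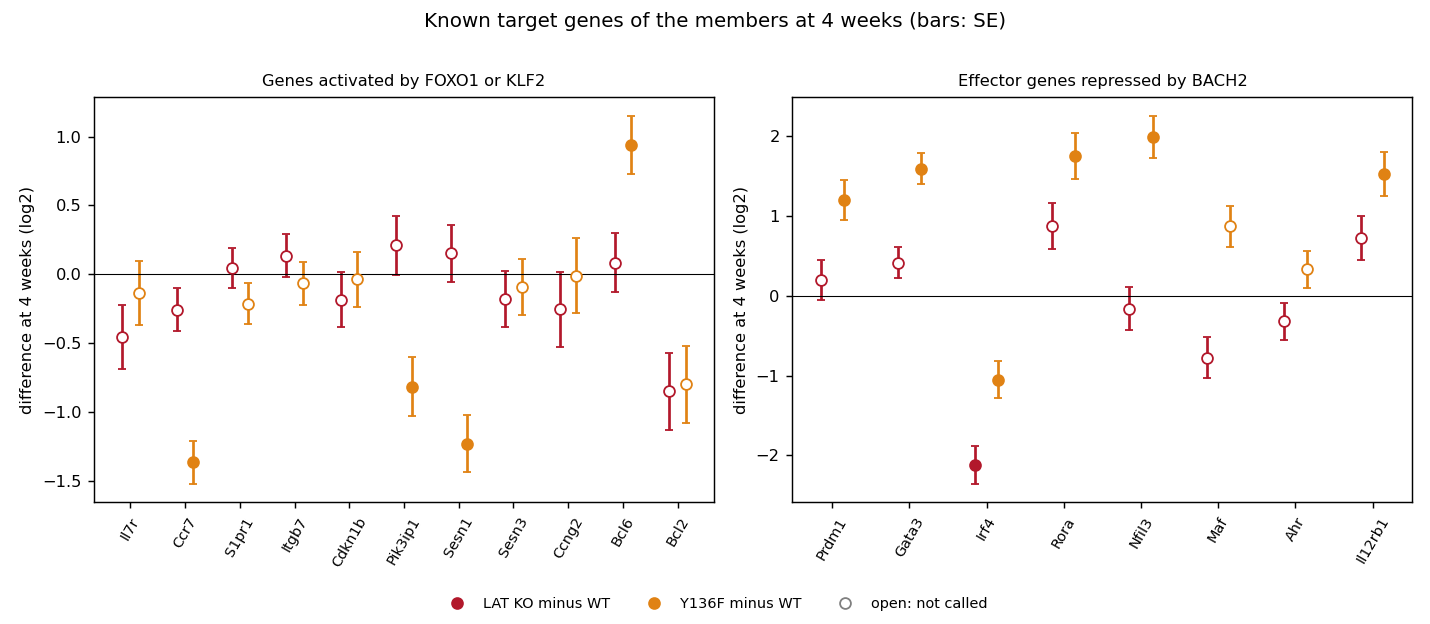
Differences from WT at 4 weeks (log2, with SE) of 11 genes listed as activated by FOXO1 or KLF2 in lymphocytes and of 8 effector genes repressed by BACH2. They are shown for LAT KO and Y136F cells, and filled points are called. Y136F points are filled for Ccr7, Sesn1 and Pik3ip1 below 0 and Bcl6 above 0, and for Nfil3, Rora, Gata3, Il12rb1 and Prdm1 above 0 and Irf4 below 0, and the only filled LAT KO point is Irf4 at -2.12.

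Relatives of the members in the same families were called in 5 of 26 cases between LAT KO and Y136F cells at 4 weeks, against 3.53% of all probes. The forkhead gene Foxo3 (0.80 ± 0.18, SE, limma adjusted p = 0.0152) and the Krüppel-like gene Klf7 (0.55 ± 0.13, adjusted p = 0.0235) were higher in LAT KO cells. Id2, the ID protein of effector cells (-1.70 ± 0.31, adjusted p = 0.00338), Klf10 (-0.57 ± 0.14, adjusted p = 0.0297) and Klf12 (-1.04 ± 0.26, adjusted p = 0.0319) were lower. Id2 was also higher in Y136F than in WT cells (1.88 ± 0.31, adjusted p = 0.00181), and no other relative passed there. Id3 in the same contrast of the mutants differed by -0.02 ± 0.17 (95% interval -0.38 to 0.33). Of 14 other named quiescence regulators 1, the naive T cell factor Lef1, was higher in LAT KO than in Y136F cells (0.92 ± 0.20, adjusted p = 0.0125). Likewise 1, the pocket protein gene Rbl2, was higher in Y136F than in WT cells (0.80 ± 0.19, adjusted p = 0.0215). A count of 1 in 14 is close to the 3.53% and 3.49% of all probes called in these contrasts. None of 12 partners of BTG and TOB proteins in the CCR4-NOT complex and none of 3 E proteins was called in these contrasts. Their median differences were 0.06 and -0.23 between LAT KO and Y136F cells (0.03 over all probes). Between Y136F and WT cells they were 0.17 and 0.26 (-0.1645 over all probes). In LAT KO against WT cells, where none was called either, they were 0.20 and 0.24 (-0.145 over all probes).

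Early targets of the T cell receptor were read beside the members. Between LAT KO and Y136F cells at 4 weeks, the contrast in which Foxo1 and Foxp1 were called, 6 of 12 were lower in LAT KO cells (median difference -1.07; 3.53% of all probes called). They were Egr2 (-2.17 ± 0.27, SE, limma adjusted p = 0.000213), Egr1 (-2.14 ± 0.27), Jun (-1.61 ± 0.34), Nr4a1 (-1.203 ± 0.152), Egr3 (-1.07 ± 0.21) and Irf4. In Y136F against WT cells at 4 weeks (3.49% of all probes called) Jun was higher (1.90 ± 0.34, adjusted p = 0.00321), Irf4 was lower and the other 10 did not pass. At 4 weeks LAT KO cells had 5 of 12 below WT cells, where 0.0977% of all probes were called. They were Nr4a1 (-1.70 ± 0.15, SE, limma adjusted p = 8.82e-05), Irf4, Egr2 (-2.33 ± 0.27, adjusted p = 0.00114), Egr3 (-1.39 ± 0.21, adjusted p = 0.0194) and Egr1 (-1.70 ± 0.27, adjusted p = 0.0208). At 1 week 5 of 12 were called lower in LAT KO cells (0.015% of all probes called). In Y136F cells 3 of 12, Nr4a1, Egr3 and Irf4, were called lower (0.0125% of all probes called). No member of the quiescence set was called at 1 week, which is near these shares of all probes. Nr4a1 then differed from WT by -2.02 ± 0.15 in LAT KO cells and by -1.60 ± 0.15 in Y136F cells (adjusted p = 5.78e-06 and 0.000217).

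The genes most like each member over the 18 arrays, among 13670 named genes and by the member's brightest probe, are given as a description, since the arrays share slides and scaling. Foxo1 was most like Cers6 (Pearson r = 0.845), Ggt5 (0.840) and Actn1 (0.840), and Foxp1 most like Il6ra (0.914), Abl2 (0.901) and Btg3 (0.887), a relative of Btg1 and Btg2. The highest value for Klf2 was 0.961 (Ptms), for Klf3 0.912 (Arhgap10), for Tob1 0.915 (Fbxo31), for Btg1 0.854 (Cdipt), for Btg2 0.900 (H2-M3, followed by Tap1, both of antigen presentation), for Satb1 0.918 (Zfp784) and for Id3 0.836 (Ptpn6). No member was among the 3 genes most like another member.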

How the data were processed

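Per the file headers, Agilent Feature Extraction 10.5.1.1 produced the deposited spot intensity, and the processed intensity used here is background-corrected and linear. The other deposited values used, the spot flags, are the software's own, per the file headers. The submitters' processing notes name Feature Extraction 10.5 and limma. A series matrix, also deposited, gives log2 values (column medians 8.558 to 8.57, ranking probes like the median intensity) and served as an alternative only; its normalization is not given in the sources used here.

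Processed intensity was put on the log2 scale without outlier spots, each array was scaled by subtracting its 75th percentile over 43379 non-control spots (that percentile ran from 1123.7 to 1896.1 intensity units) and spots of 1 probe were averaged (245 probes). Every probe was kept on its own. Probes had to be well above background on 3 or more arrays (39985 of 41174). Symbols came by accession from a RefSeq table of GRCm38.p6 and named 24844 probes; the array design refers to another build, so no probe coordinates are given. Each list gene is read by its brightest probe.

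Tests used limma 3.58.1 in R 4.3.3 with 1 mean per group over 18 arrays, an intensity trend, 12 residual degrees of freedom, two-sided p-values and Benjamini-Hochberg adjustment over all probes of a comparison (threshold 0.05, called); a change of effect is the difference between the differences at 4 weeks and 1 week. The scripts were tested on simulated data. Members, lists and named genes were chosen with earlier results of these data known: every member probe is given, and of each other list up to 4 called genes per direction with the smallest p whose groups do not overlap; names beyond that (S1pr1, Il7r, genes beyond the 4 of a list and Cd44) were added after their values were seen. One gene of the FOXO1 and KLF2 list is not reported here. Same-numbered arrays deviated together in every pair only for LAT KO against WT at 4 weeks, with correlations of 0.043, 0.023 and 0.276 across probes. Numbers were therefore not treated as pairs. Each replicate is a separate mouse per the labels, and the number of arrays limits the precision. Alternatives were normexp with an offset of 50, quantile normalization, the series matrix, probe and filter rules, outlier spots kept, slide, sex, replicate number or the share of bright spots as terms, fewer groups, no trend, array weights and arrays left out.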

Additional observations from a re-analysis of the deposited data

Results flagged for a closer look

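LAT KO and Y136F effects differed by the direct test at 4 weeks in 3 probes. For Foxo1 the difference between the LAT KO and the Y136F effect was 0.6387 by the brighter probe and 0.9292 by the second probe, and for Foxp1 it was 0.7745 (log2, limma, adjusted p = 0.0143, 0.00449 and 0.0319). By the second Foxo1 probe all 3 LAT KO arrays lay above the mean of WT and all 3 Y136F arrays below it.

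For Tob1 all 3 LAT KO arrays lay below the WT mean at 1 week and all 3 above it at 4 weeks. The 2 effects differ by 0.8843 (log2), and the test of that difference did not pass (limma adjusted p = 0.818). The WT mean moved more than the LAT KO mean between the times. It was -2.30 at 1 week and -3.38 at 4 weeks in WT cells, and -2.53 and -2.73 in LAT KO cells.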

How the results depend on the processing

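Between LAT KO and Y136F cells at 4 weeks, 3 members were called, and the second Foxo1 probe passed in 20 of 21 alternatives (0.80 to 1.08), the brighter one in 17 of 22 (0.51 to 0.74) and Foxp1 in 14 of 22 (0.63 to 1.01), all in the same direction; the second probe has no value under the rule of 1 probe per gene. The count was 0 with sex as a term and 1 with slide as a fixed term, and 1 to 3 with each array left out in turn (1 without LAT KO replicate 2 or Y136F replicate 1). Slide as a fixed term ended the calls of the brighter Foxo1 probe (adjusted p = 0.0539) and Foxp1 (0.0879), and leaving out the intensity trend that of Foxp1 (0.0642). With the replicate number as a block all 3 were called (3), and the block changed no other call. Over all probes this contrast gave 1411 calls, 270 with the sex term (0.676%) and 3289 with array weights; Y136F against WT at 4 weeks gave 1393, 112 and 6703. With array weights, 8 members were called for LAT KO against WT at 4 weeks (13.6% of all probes called), 7 for Y136F against WT (16.8%) and 4 for WT over time (5.7%), against 0 otherwise. Y136F against WT gave 1 with quantile normalization (Foxp1, -0.68) and 1 with slide as a random block (Foxo1, -0.49), and WT over time gave 1 without both libraries of contradicted sex (Tob1, -1.08). The counts of 0 in the other comparisons stayed 0 (0 to 0) with each array left out. No member's difference reversed after a call. The cause of these changes was not tested. Labelled sex and genotype cannot be told apart for Y136F at 4 weeks, so the sex term rests on the LAT KO and WT arrays of 1 week.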
